A study of Rattus norvegicus with 8 samples.

Results

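The Nr4a genes encode a small subfamily of orphan nuclear receptors, and the 3 members (Nr4a1, Nr4a2 and Nr4a3) were taken by gene symbol from the 17337 genes counted in the striatum of 8 rats. They had been chosen from their levels in the comparison of methamphetamine (METH) with saline in these same rats, so that this comparison is given for them as a description, with no test. All 3 members passed the filter on low counts, which left 12014 genes. Wild-type male Sprague-Dawley rats pressed a lever for infusions of METH at 0.05 mg/kg (n = 4) or of saline alone (n = 4), in self-administration sessions of 2 h on 16 days. Every rat was trained on food and fitted with a jugular catheter before the sessions. All were put under ketamine and xylazine before the brain was taken. The time from the last session to sampling is not stated in the methods. By the methods more rats took METH than saline, and 4 of each with stable lever pressing were kept. A smaller share of the METH rats than of the saline rats was therefore kept. Each rat gave 1 poly(A) library. As far as the labels tell, the striatum of the 2 groups differed in the drug only, but this selection differed as well.

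Nr4a receptors work as transcription factors without a known hormone that switches them on, so that their activity follows how much of them is made. In neurons they are immediate early genes, transcribed within minutes of a rise in calcium or cAMP without new protein synthesis. Nr4a1 (also Nur77) and Nr4a3 (also NOR-1) are known for induction in the striatum by dopaminergic drugs and by neuronal activity. Nr4a2 (also Nurr1) is best known for the development and upkeep of midbrain dopamine neurons, and it is also a marker of deep cortex and claustrum.

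The total count lay between 18135939 and 21211920 reads per rat. Levels are given as CPM, the count of a gene relative to the library total after TMM scaling for library composition. Counting intervals hold the error of counting alone. The 10 listed markers of striatal projection neurons, among them Drd1, Drd2 and Ppp1r1b, were all expressed in every rat, with a summed level of 14830 to 15847 CPM in saline rats and 15645 to 19614 CPM in METH rats. Several libraries stood apart. Saline rat 1 held reads of glutamatergic cortex genes, given with Nr4a2 below. METH rat 3 lay at 39.5 on the first principal component (26.4% of the variance), with the other METH rats between 0.257 and 5.29. Saline rat 3 was at -24.6 there, and the other saline rats were between -11.7 and -4.18. METH rat 4 and saline rat 2 had the highest counts of the hypothalamic markers Oxt (945 and 75) and Avp (348 and 564). For the Nr4a genes, results that rest on saline rat 1 or METH rat 3 are given with and without them. Fewer cells of a type and less RNA per cell cannot be told apart in such tissue samples.

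Nr4a3 was higher in every METH rat than in any saline rat, by a fold of 6.74, and the 4 rats of each group lay close together. Its counts were 170, 149, 229 and 238 in saline rats 1 to 4 and 1206, 1481, 1227 and 1234 in METH rats 1 to 4. In CPM this was 9.33, 7.45, 11.1 and 11.2 in the saline rats, with a mean of 9.77 ± 1.77 (SD, n = 4). The METH rats were at 59.0, 70.5, 69.3 and 65.0 CPM, with a mean of 66.0 ± 5.18 (SD, n = 4). The lowest METH rat was thus well above the highest saline rat. With a log2 fold change of 2.75 (standard error 0.13), Nr4a3 was at rank 6 of the 12014 genes from the highest down. Without saline rat 1 the log2 fold change was 2.73 (standard error 0.15), and without METH rat 3 it was also 2.73 (standard error 0.14). Nr4a3 varied little within groups, with an SD of 0.27 in saline rats and 0.12 in METH rats on the log2 CPM scale.

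Nr4a1 was also higher in every METH rat than in any saline rat, by a fold of 3.77, but its saline level differed widely between rats. Its counts were 2670, 1274, 940 and 1381 in saline rats 1 to 4 and 6135, 5794, 5620 and 5966 in METH rats 1 to 4. The saline rats were at 147, 63.7, 45.4 and 65.3 CPM (mean 80.2 ± 45.1, SD, n = 4), so that saline rat 1 was 2.52 times the mean of the other saline rats (58.1 ± 11.0 CPM, SD, n = 3). The METH rats were at 300, 276, 317 and 314 CPM (mean 302 ± 19.0, SD, n = 4). On the log2 CPM scale the SD was 0.72 in saline rats and 0.093 in METH rats. The log2 fold change was 1.91 (standard error 0.27), rank 15 from the highest down. It was 2.38 (standard error 0.13) without saline rat 1 and 1.89 (standard error 0.29) without METH rat 3. Even saline rat 1, the highest saline rat, stayed below the lowest METH rat.

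Nr4a2 had few reads outside saline rat 1, and its groups overlapped. Its counts were 201, 30, 33 and 28 in saline rats 1 to 4 and 14, 52, 34 and 37 in METH rats 1 to 4. The levels were 11.0, 1.50, 1.59 and 1.32 CPM in the saline rats (mean 3.86 ± 4.78, SD, n = 4) and 0.685, 2.48, 1.92 and 1.95 CPM in the METH rats (mean 1.76 ± 0.759, SD, n = 4). A single library, saline rat 1, was 7.49 times the mean of the other saline rats (1.47 ± 0.138 CPM, SD, n = 3). Its 95% counting interval (exact Poisson) of 9.56 to 12.7 CPM lay above those of the other rats, the highest of which reached 3.25 CPM in METH rat 2. METH rat 1 was the lowest rat, with an interval of 0.375 to 1.15 CPM. The log2 fold change was -1.12 (standard error 0.65) with all rats and 0.25 (standard error 0.43) without saline rat 1, so that its direction rested on that rat. Without METH rat 3 it was -1.16 (standard error 0.74).

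**Figure D1:**
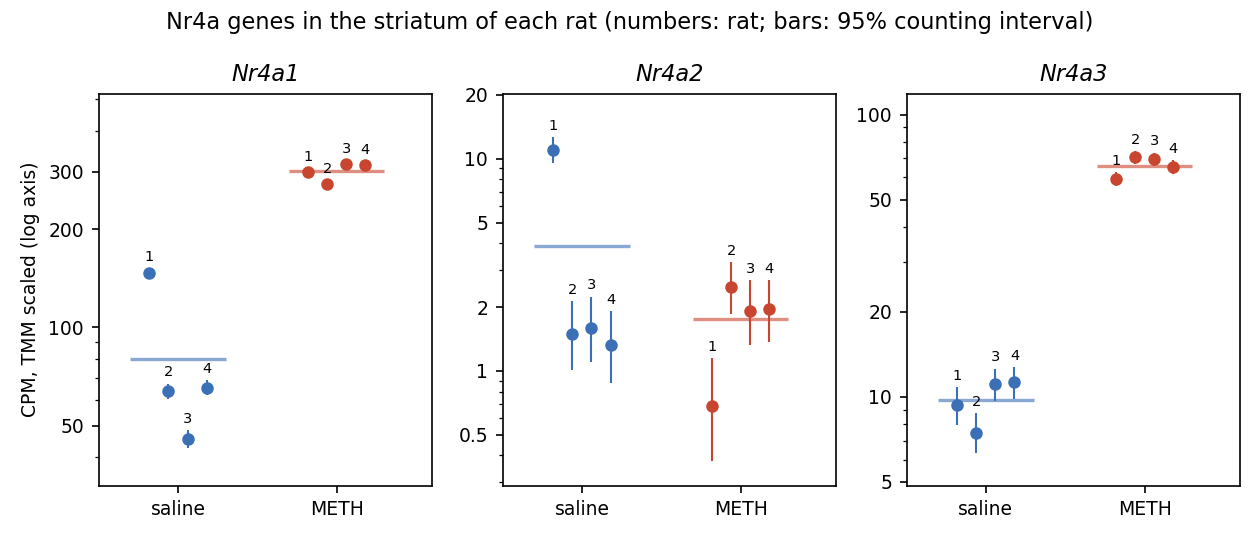
CPM of Nr4a1, Nr4a2 and Nr4a3 in each rat on a log axis, with the rat number, the 95% counting interval as a bar and the group mean as a line. The METH rats lie above all saline rats for Nr4a1 and Nr4a3, and saline rat 1 is the highest rat for Nr4a2, at 11.0 CPM.

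Of the 3 members, 2 (Nr4a1 and Nr4a3) had groups that did not overlap, and in both METH was above saline. Of all genes tested, 3.75% had every METH rat above every saline rat, 2.65% had every METH rat below, and 6.39% had no overlap in either direction, and 0.516% were called different (54 higher, 8 lower) by the edgeR quasi-likelihood test, with calls made where the mean log2 CPM exceeded 1 and the FDR was under 0.05. Since the members were chosen on this comparison, nothing is read from their count.

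Nr4a1 and Nr4a3 did not move in step within the saline group. A ratio of counts within a rat needs no library scaling, and since it is not corrected for transcript length it is compared between rats only. In saline rats 1 to 4 there were 15.7, 8.55, 4.10 and 5.80 Nr4a1 reads for each Nr4a3 read. In METH rats 1 to 4 there were 5.09, 3.91, 4.58 and 4.83. The ratio spread over a range from 4.10 to 15.7 in saline rats and from 3.91 to 5.09 in METH rats, and the ranges overlapped. Without saline rat 1 the highest saline ratio was 8.55. Saline rat 1 was 1.01 above its group mean for Nr4a1 and 0.05 below it for Nr4a3 on the log2 CPM scale. Saline rat 3 was the reverse, 0.67 below the mean for Nr4a1 and 0.20 above it for Nr4a3. The METH rats deviated by at most 0.16 from their group mean for either gene. The 3 members together took 1202 to 3041 reads in saline rats and 6881 to 7355 in METH rats, and Nr4a2 made up 1.70% to 6.61% of these reads in saline rats and 0.190% to 0.710% in METH rats. Without saline rat 1 the saline ranges were 1202 to 1647 reads and 1.70% to 2.75%. This share also falls when Nr4a1 and Nr4a3 reads rise, so it does not show a lower Nr4a2 level. The Nr4a2 counts themselves were 28 to 33 in saline rats 2 to 4 and 14 to 52 in METH rats.

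The sequence before the start of these genes is shown because CREB, bound at cAMP response elements, is known to drive Nr4a transcription. Promoters from RefSeq (assembly GRCr8, 250 bases before to 50 after the start) matched 2 of the 3 members by symbol, Nr4a1 at chr7:134259888-134260187 on the plus strand and Nr4a2 at chr3:62104838-62105137 on the minus strand. The reads were aligned to rn6, so these positions are not those of the counts. Capitals mark each match to TGACG on either strand, the core of the cAMP response element.
Nr4a1 promoter: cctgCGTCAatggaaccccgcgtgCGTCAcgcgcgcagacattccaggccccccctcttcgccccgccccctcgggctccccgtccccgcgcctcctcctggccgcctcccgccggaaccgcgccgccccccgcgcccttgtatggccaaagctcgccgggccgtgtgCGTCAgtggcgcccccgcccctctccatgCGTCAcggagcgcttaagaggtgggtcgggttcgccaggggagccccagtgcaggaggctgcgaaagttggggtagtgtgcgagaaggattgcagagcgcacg
Nr4a2 promoter: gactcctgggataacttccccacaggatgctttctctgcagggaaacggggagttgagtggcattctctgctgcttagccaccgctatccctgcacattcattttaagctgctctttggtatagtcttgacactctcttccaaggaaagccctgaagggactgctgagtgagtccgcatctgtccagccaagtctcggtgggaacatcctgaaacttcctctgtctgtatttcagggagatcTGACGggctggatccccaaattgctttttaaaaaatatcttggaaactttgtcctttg
The Nr4a1 window held 4 of these cores, which began 246, 226, 82 and 53 bases before the start, and each stood in the same 7 letters, TGCGTCA. The Nr4a2 window held 1, which began 8 bases before the start. At least 1 core was found in 21.2% and at least 4 in 0.236% of the 33469 promoters of this length. A full palindromic site (TGACGTCA, which counts as a match on each strand) was in neither window and in 1.83% of all promoters. The same held for the site that Nr4a receptors themselves bind (AAAGGTCA, either strand), found in 1.43% of promoters, for the CArG box of Srf (1.64%) and for the MEF2 box (3.29%). The Nr4a1 window had a GC content of 72.3% and the Nr4a2 window one of 48.7%. These matches describe the letters of the windows and not binding in these rats.

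The reads of cortex genes in saline rat 1 moved with Nr4a2. Among the listed markers of cortex and claustrum, Slc17a7, Tbr1, Neurod6 and Neurod2 mark glutamatergic cortical neurons and had their highest count in saline rat 1. Slc17a7, the vesicular glutamate transporter of cortical neurons, was read 1198 times in saline rat 1, 64, 76 and 66 times in saline rats 2 to 4 and 80, 256, 108 and 68 times in METH rats 1 to 4. Neurod2 had 74 counts in saline rat 1 and at most 4 in any other rat. Tbr1 had 69 against at most 9 and Neurod6 66 against at most 13. The counts of Cux2, Ntng2, Gnb4, Rprm and Fezf2 in saline rat 1 (323, 198, 521, 36 and 149) were each exceeded in another rat, although after library scaling Cux2 (17.7 CPM, other rats at most 16.3) and Ntng2 (10.9 CPM, other rats at most 10.3) were slightly highest there. The summed level of the list of 10 was 147 CPM in saline rat 1 and 53.4 to 85.8 CPM in the other rats, and at least 1 rat had a count of 0 for Neurod6 and Neurod2. Among METH rats, METH rat 2 was highest for both Nr4a2 (52 counts) and Slc17a7 (256 counts). The part of these cortical reads in the Nr4a levels was not tested. Without saline rat 1 the log2 fold changes of Nr4a1, Nr4a2 and Nr4a3 were 2.38, 0.25 and 2.73, as given above.

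**Figure D2:**
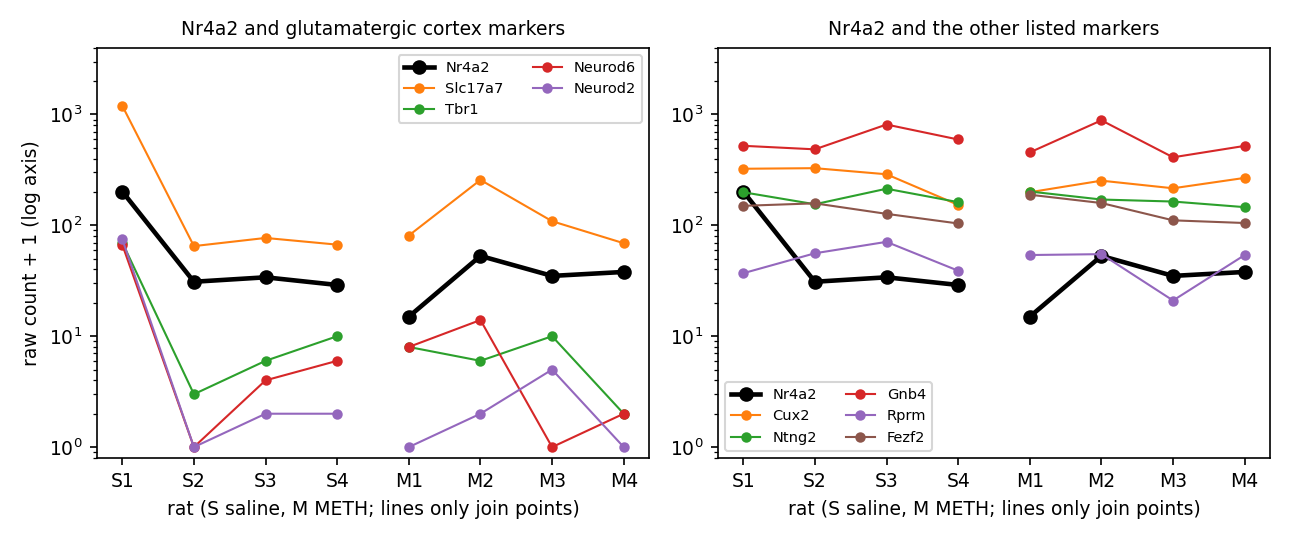
Raw counts plus 1 on a log axis for Nr4a2 (black) and listed cortex and claustrum markers in saline (S) and METH (M) rats 1 to 4. Slc17a7, Tbr1, Neurod6 and Neurod2 peak in saline rat 1 together with Nr4a2 (201 counts), while each of the 5 markers on the right has a higher count in another rat.

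The 5 dopamine neuron markers, whose cells express Nr4a2 in the midbrain, summed to 19.5 to 37.2 CPM in saline rats and 18.8 to 29.8 CPM in METH rats. Most of this came from Ddc (212 to 487 counts), which makes dopamine and serotonin, and Slc18a2 (126 to 238 counts), the vesicular monoamine transporter. Slc6a3, the dopamine transporter, had at most 1 count and Pitx3 at most 3 in any rat, and Th, the rate-limiting enzyme of dopamine synthesis, was at 0.329 CPM in saline rat 1 and at 0.196 to 0.950 CPM in the other rats.

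Among the other nuclear receptors, none was called. The list held 45 receptors, of which 28 were tested, 13 were too low to test and the other 4 were not analysed here. The edgeR quasi-likelihood test called 0 higher and 0 lower, against 0.516% of all genes. At an unadjusted p under 0.05, which 11.1% of all genes passed in either direction, 5 of 28 were higher and 3 lower. Their median log2 fold change was 0.007, with 14 of 28 above 0, beside a median of -0.0055 over all genes. The highest of the 28 was Rarg, a retinoic acid receptor, which averaged 9.70 ± 1.28 CPM under saline and 14.6 ± 1.42 CPM under METH (SD, n = 4 each). Its groups did not overlap, and the log2 difference was 0.59 ± 0.14 (SE, quasi-likelihood FDR = 0.105, 0.0102 to 0.309 over the alternatives). It was called by the likelihood ratio test (1 receptor) and by DESeq2, which called 2. The other was the glucocorticoid receptor Nr3c1 (log2 fold change -0.27). Every METH rat was above every saline rat in 5 of the 28 receptors, against 3.75% of all genes. Every METH rat was below in 2, Nr3c1 and Nr3c2, against 2.65% of all genes. Nr2c2, an orphan receptor, was at -0.34 ± 0.16 (SE) on the log2 scale, with an FDR of 0.456 by the quasi-likelihood test and overlapping groups. The log2 fold changes of Nr4a1 and Nr4a3, 1.91 and 2.75, lay above all 28.

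**Figure D3:**
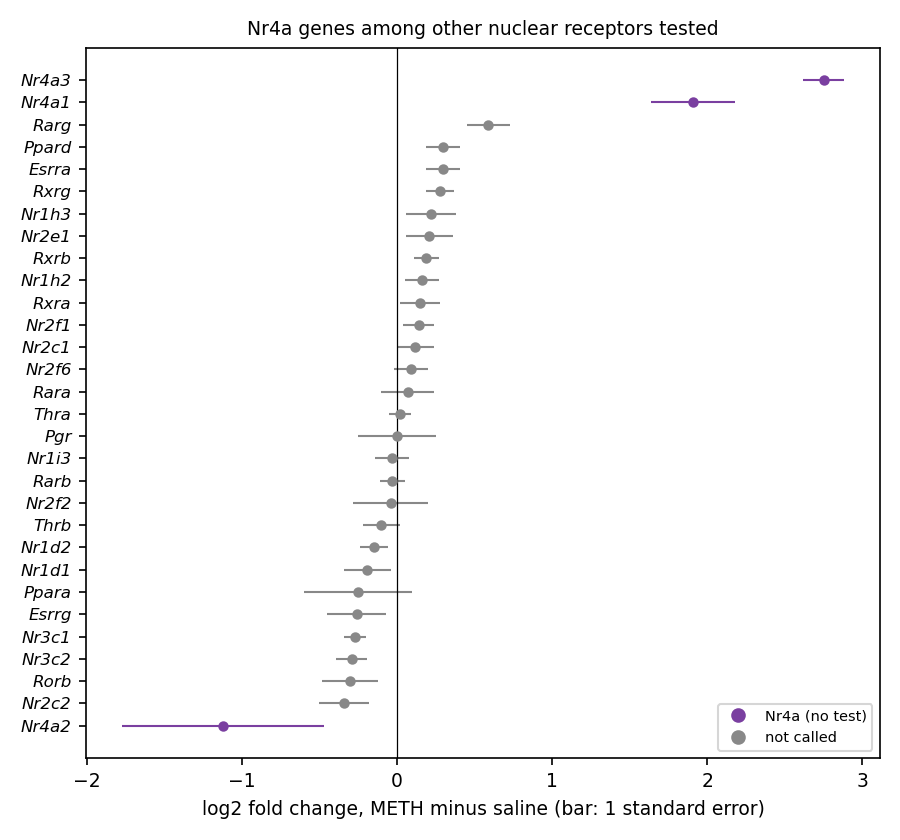
Log2 fold change of METH minus saline with 1 standard error for other nuclear receptors tested (grey, none called) and the Nr4a genes (purple, given without a test). Nr4a3 at 2.75 and Nr4a1 at 1.91 lie above the other receptors, the highest of which is Rarg at 0.59.

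Partners and coregulators of the Nr4a receptors showed small differences. Nr4a1 and Nr4a2 can bind DNA with a retinoid X receptor, whereas Nr4a3 does not, and Rcor1 (CoREST) with the demethylase Kdm1a represses genes at which Nr4a2 sits. Of 15 listed genes 13 were tested, and 0 were called by the quasi-likelihood test (0.516% of all genes), the likelihood ratio test or DESeq2. At an unadjusted p under 0.05, 4 of 13 were higher and 0 lower, against 11.1% of all genes. The median log2 fold change was 0.091. Rxrg, the retinoid X receptor enriched in striatum, averaged 144 ± 12.4 CPM under saline and 175 ± 18.5 CPM under METH (SD, n = 4 each), with overlapping groups and a log2 fold change of 0.28 ± 0.09 (SE, quasi-likelihood FDR = 0.263). Rcor1 and the acetyltransferase gene Crebbp, with log2 fold changes of 0.26 and 0.24, had groups that did not overlap (FDR = 0.310 and 0.358 by the same test). Ncoa3 and Ep300 were not analysed here.

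Of the listed regulators of Nr4a transcription, 1 was called higher. The list of 20 held CREB and its coactivators, MEF2 factors and the histone deacetylases that restrain them, the serum response factor and its partners, and kinases. All but Crtc3 and Mef2c, which were not analysed here, were tested, and 1 of 18 was called higher and 0 lower, against 0.449% and 0.0666% of all genes. The median log2 fold change was 0.002. Crem, a cAMP-responsive modulator of CREB sites, rose from 21.4 ± 2.40 to 32.5 ± 1.83 CPM (SD, n = 4 each), a log2 fold change of 0.60 ± 0.10 (SE, quasi-likelihood FDR = 0.0149, 3.5e-05 to 0.0848 over the alternatives). Its FDR was 0.0649 without saline rat 4 and 0.0620 without METH rat 4, and the call was then lost. Srf, the serum response factor, averaged 172 ± 10.4 CPM under saline and 219 ± 13.9 CPM under METH (SD, n = 4 each), without overlap, with a log2 fold change of 0.35 (standard error 0.08) and an FDR of 0.0720 by the quasi-likelihood test. Over the alternatives this FDR ranged from 0.00140 to 0.208, and without saline rat 3 it was 0.0475. Crtc2, a CREB coactivator, had a log2 fold change of 0.35 (FDR = 0.274), and Hdac9, which binds MEF2 factors, one of -0.44 (FDR = 0.488 by the same test).

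Nr4a1 and Nr4a3 stood beside other immediate early transcription factors, of which 10 of the 20 listed rose and 0 fell by the quasi-likelihood test, against 0.449% and 0.0666% of all genes. At an unadjusted p under 0.05, 13 of the 20 were higher, against 11.1% of all genes in either direction. The median log2 fold change was 0.91, with 17 of 20 above 0. Egr2, a zinc finger factor, rose from 9.83 ± 6.07 to 53.5 ± 20.3 CPM (SD, n = 4 each), a log2 fold change of 2.45 ± 0.35 (SE, quasi-likelihood FDR = 0.00413). Fosl2, an AP-1 subunit, rose from 4.80 ± 1.33 to 19.8 ± 1.59 CPM (SD, n = 4 each), a log2 fold change of 2.05 (standard error 0.19). Fos rose by a log2 fold change of 1.70, Egr4 by 1.66, Junb by 1.50, Fosb by 1.26, Ier5 by 1.06 and Egr1 by 1.02. The call of Fos (FDR = 0.0473 by the quasi-likelihood test) was lost, with an FDR of up to 0.176, when saline rat 2, 3 or 4 or METH rat 1, 3 or 4 was left out, and with all rats under total count scaling (FDR = 0.0584 by the same test). Npas4, a factor induced by calcium entry, had a log2 fold change of 1.63 without overlap between groups but an FDR of 0.0827 by the same test. Over the alternatives this FDR ranged from 0.00194 to 0.241, and Npas4 was called by the likelihood ratio test, without the filter (FDR = 0.0433) and with the replicate block (FDR = 0.00437). Maff and Klf4 had log2 fold changes of 0.74 and 0.42 with an FDR of 0.430 and 0.548 by that test. The number called was 10 without saline rat 1 and 9 without METH rat 3. In order of log2 fold change Nr4a3 came before Egr2 and Nr4a1 between Fosl2 and Fos, with differences from these neighbours that were within 1 standard error of the less precise gene. Nr4a2 came last at -1.12, a place that rested on saline rat 1, without which it was at 0.25. Without that rat Egr2 (2.96) came before Nr4a3 (2.73), and Nr4a1 (2.38) before Fos (2.26) and Fosl2 (2.14).

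**Figure D4:**
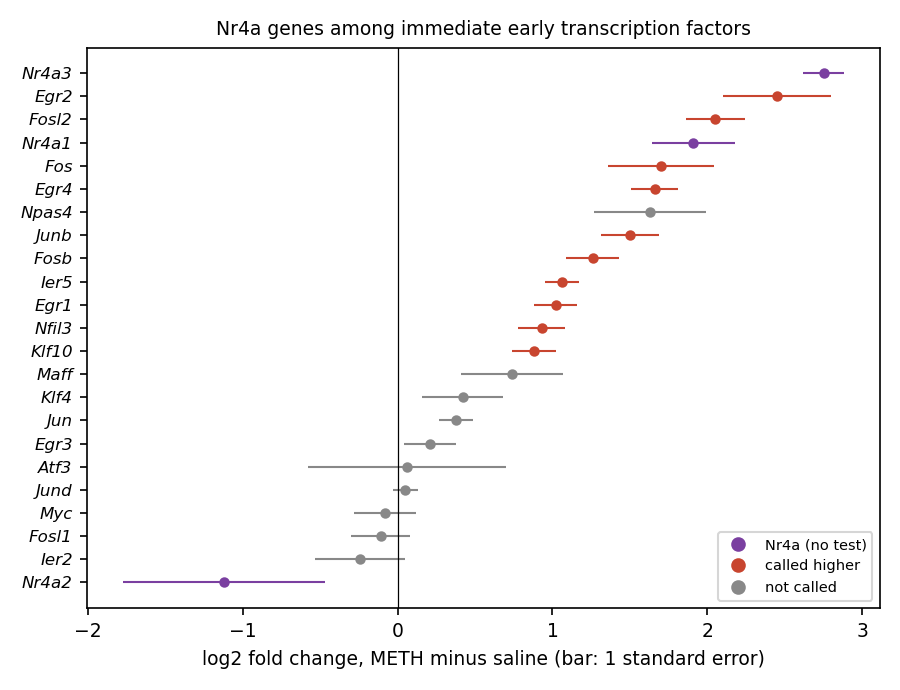
Log2 fold change of METH minus saline with 1 standard error for 20 immediate early transcription factors (red, called higher; grey, not called) and the Nr4a genes (purple, given without a test). Nr4a3 (2.75) and Nr4a1 (1.91) fall among the early genes with the highest values, and Nr4a2 has the lowest (-1.12, but 0.25 without saline rat 1).

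Genes reported as targets of Nr4a receptors in other tissues did not change as called. Of 18 listed, 13 were tested. The other 5 (Slc6a3, Vip, Bdnf, Fbp2 and Ucp3) had at most 30 counts in any rat. By the quasi-likelihood test (0.516% of all genes), the likelihood ratio test and DESeq2 0 were called, and at an unadjusted p under 0.05 (11.1% of all genes) 1 of 13 was higher and 0 were lower. The median log2 fold change was -0.107, with 4 of 13 above 0. Ret, the receptor tyrosine kinase for glial cell line-derived factors, averaged 2.23 ± 0.383 CPM under saline and 4.38 ± 1.42 CPM under METH (SD, n = 4 each), with overlapping groups and a log2 fold change of 0.97 ± 0.29 (SE, quasi-likelihood FDR = 0.222). Birc3, an inhibitor of apoptosis, had a log2 fold change of -0.99 and Dlk1, a Notch-related membrane protein, one of -0.67, with an FDR of 0.539 and 0.503 by the same test. Counting error was large for Birc3, which was at 1.65 CPM or less in every rat.

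Likeness of pattern was measured as the root mean square difference between log2 CPM profiles over the 8 rats, after the mean of each gene was taken off. Genes were picked by this likeness to a member, so a METH difference or a high saline rat shared with it follows from the choice. The 5 genes nearest to Nr4a1 were Arc, a synaptic early gene (0.201 log2 units), Fos (0.275), Junb (0.377) and the genes named Mir212 (0.380) and Mir132 (0.397). The last 2 are precursor loci of miRNAs whose mature forms lack a poly(A) tail and were not captured. Arc was at 228 CPM in saline rat 1, the highest of the saline rats, whose lowest was at 75.8 CPM, and at 307 to 547 CPM in METH rats, so that it shared both the METH difference and the high saline rat with Nr4a1. The 5 nearest to Nr4a3 were Fosl2 (0.395), Mir132 (0.432), Egr4 (0.599), Nr4a1 (0.625) and Egr2 (0.677). Fosl2 and Egr4 resembled Nr4a3 in that saline rat 1 did not exceed the highest of the other saline rats, at 5.71 CPM against 5.99 CPM for Fosl2 and 133 CPM against 141 CPM for Egr4. In the other 3, saline rat 1 was the highest saline rat, at 1.81 CPM for Mir132, 147 CPM for Nr4a1 and 18.7 CPM for Egr2. The 5 nearest to Nr4a2 were Cck, a neuropeptide (0.466), Cyr61 (0.543) and Nov (0.568), both matricellular proteins, Nxph3 (0.600) and Slc17a7 (0.630). For all of these 5 the highest rat was saline rat 1, and Cck was at 72.0 CPM there and at 12.6 to 30.3 CPM in the other rats. When profiles were compared without saline rat 1, 4 of the 5 genes nearest to Nr4a1, 4 of those nearest to Nr4a3 and 0 of those nearest to Nr4a2 stayed among the nearest 5, and Nr4a3 then came among the 5 nearest to Nr4a1.

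**Figure D5:**
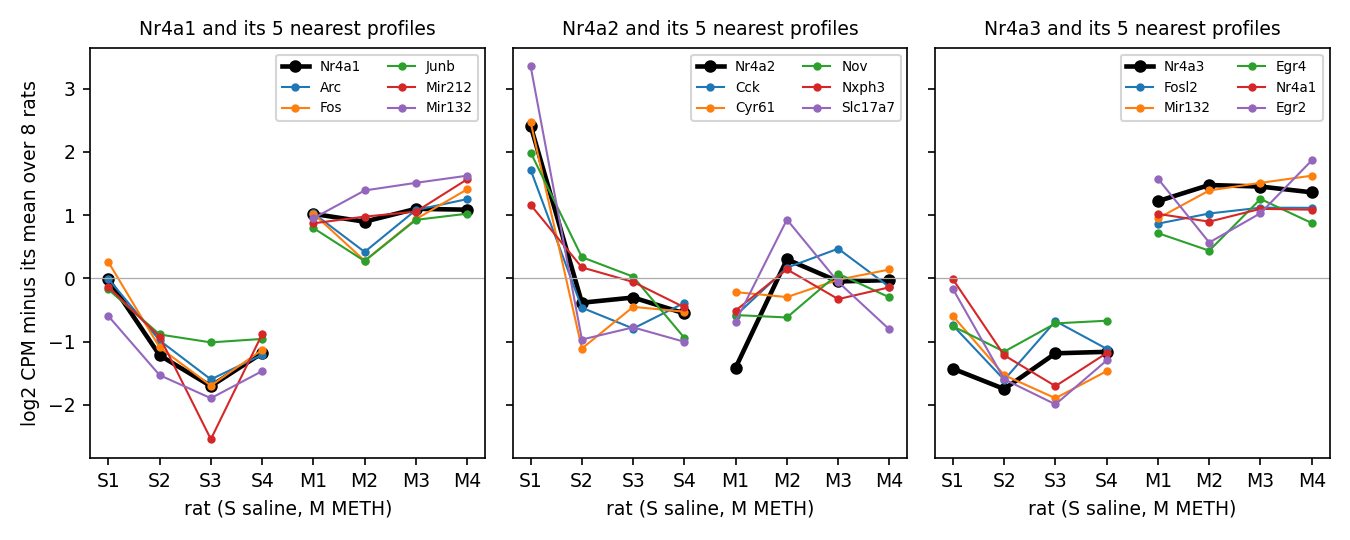
Log2 CPM minus its mean over the 8 rats for each Nr4a gene (black) and the 5 genes with the nearest profile, in saline (S) and METH (M) rats 1 to 4. By this choice the genes near Nr4a1 and Nr4a3 are higher in METH rats, and those near Nr4a2 share a peak in saline rat 1.

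Markers of other cells that differed between the groups are given beside these results. Of 6 microglial markers 1 was called lower and 0 higher, against 0.0666% and 0.449% of all genes. This was Cx3cr1, the fractalkine receptor, which fell by 0.73 on the log2 scale (FDR = 0.0408 by the quasi-likelihood test). Its lowest rat was METH rat 3 at 14.0 CPM, with METH rats 1, 2 and 4 at 20.7, 21.8 and 18.8 CPM. Its FDR without METH rat 3 is not given here. C1qa, at 0.11, was the only 1 of the 6 above 0. The summed level of the 6 was 301 to 354 CPM in saline rats and 261 to 319 CPM in METH rats. All 4 endothelial markers tested had a log2 fold change below 0 (-0.34 to -0.19) and 0 were called, with 2 lower at an unadjusted p under 0.05 (11.1% of all genes). Of the 5 astrocyte and 5 oligodendrocyte markers 0 were called, and 0 passed an unadjusted p of 0.05. The summed level was 1305 to 1554 CPM in saline and 1291 to 1700 CPM in METH rats for astrocytes, and 12113 to 17551 and 11514 to 17154 CPM for oligodendrocytes. Of 5 hypothalamic and 5 choroid plexus markers, 3 of each were tested and 0 were called, with 1 of each higher at that unadjusted p. Their summed levels were 2.14 to 33.6 CPM in saline and 3.47 to 72.2 CPM in METH rats for hypothalamus, and 5.54 to 7.35 and 7.24 to 11.1 CPM for choroid plexus. The part of any cell type in the levels of the Nr4a genes was not tested.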

How the data were processed

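Striatal mRNA of 8 rats (4 METH, 4 saline) was sequenced. The authors trimmed the reads with Cutadapt (1.18 in the submitters' processing notes), aligned them to rn6 with STAR 2.7.0e and deposited raw counts per gene symbol from featureCounts (Subread 1.6.4), without normalization. Annotation, strand setting and multi-mapping rules are not given in the sources used here, so overlapping genes, such as those beside Mir132 and Mir212, are uncertain. Total counts were 18135939 to 21211920 per rat.

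Values were computed with R 4.3.3 and edgeR 4.0.16: filterByExpr (minimum count 10), TMM scaling, and the quasi-likelihood F-test over all genes with Benjamini-Hochberg adjustment. Calls needed an FDR below 0.05 and a mean log2 CPM above 1. A prior count of 2 entered log2 CPM. Standard errors are the log2 fold change over the square root of F. The fit was checked on simulated counts. Rats are separate animals, each a replicate, and pairs within a group differed by a chi-square of 10.1 to 27.6 per degree of freedom.

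The members and gene lists were chosen with earlier results of these data known. Genes were named by a rule: the members, in each list the called genes (at most 8) and the 3 other genes with the largest absolute log2 fold change, the 5 nearest profiles per member, and cell type markers. Some genes that the rule or lists took are not reported here. Other genes named were chosen after their values were seen. Alternatives were the likelihood ratio test, DESeq2 1.42.0, RLE, total count and Actb scaling, no filter, no log2 CPM threshold, each rat left out, and a replicate block.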

Additional observations from a re-analysis of the deposited data

Results flagged for a closer look

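Within each group of 4 rats, the distance from the highest or lowest rat to the next one was divided by the full range of the group, on log2 values. Of 90 such groups (members, named genes, marker sums and the Nr4a1 to Nr4a3 ratio) 7 were past Dixon's 95% critical value. Chance flags about 1 in 20 groups that are independent and not chosen by their pattern. Some named genes, such as Cck and Slc17a7, entered because their profiles over the rats were near that of Nr4a2. The 7 can therefore not be set against that rate. Saline rat 1 was the distant rat for Nr4a2 (gap over range 0.915), Slc17a7 (0.948), Junb (0.851) and Cck (0.838), being highest each time. Saline rat 3 was highest for Srf (0.831), METH rat 2 for the summed cortex and claustrum markers (0.876) and saline rat 2 for the summed hypothalamic markers (0.909). Nr4a1 and Nr4a3 were past this value in neither group.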

How the results depend on the processing

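The log2 fold changes of Nr4a1 and Nr4a3 kept their direction under DESeq2, RLE, total count and Actb scaling, no filter, the replicate block and with each rat left out. With 1 rat left out they ranged from 1.72 to 2.38 and from 2.64 to 2.83. That of Nr4a2 ranged from -1.41 to 0.25 with 1 rat left out, the latter without saline rat 1. The number of genes called was 170 by the likelihood ratio test (131 higher, 39 lower) and 191 by DESeq2 (141 higher, 50 lower), and 37 to 70 with 1 rat left out, 37 without saline rat 2. These tests called 1 and 2 other nuclear receptors and 2 and 3 upstream regulators. Among upstream regulators 0 to 2 were called with 1 rat left out, 0 without saline rat 4 or METH rat 4 and 2 without saline rat 3. Early factors called ranged from 9 to 11 with 1 rat left out, and the other lists had 0. The cause was not tested. The rat numbers did not pair the rats (correlation of deviations of same-numbered rats from -0.20 to 0.04, with 1 of 4 numbers correlating best with its own). With the replicate block 37 genes (35 higher, 2 lower) and 0 upstream regulators were called, and the log2 fold changes of Nr4a1, Nr4a2 and Nr4a3 were 2.06, -0.45 and 2.76. Cck was then at 0.0099. Without saline rat 1 the direction also turned for Cck (range with 1 rat left out -0.64 to 0.57), Cyr61 (-1.34 to 0.61) and Slc17a7 (-2.06 to 0.96). Named genes changed call 10 times with all rats kept and 16 times with 1 left out. With a prior count of 0.5, 4 of the 5 genes nearest to Nr4a1 and all 5 of those nearest to Nr4a2 and Nr4a3 were kept. The comparison of nearest profiles without saline rat 1 was added after the data were seen. Depth limits Nr4a2, with 14 to 52 counts outside saline rat 1.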

Other observations

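Nr4a2 was 1 of 10 genes, among the 10976 with a mean log2 CPM above 1, that were at least 2-fold higher in saline rat 1 than in every other rat. The others were Slc17a7 (5.40 times the next rat), Cyr61 (5.21), Nov (3.20), Ifit3 (2.55), Cck (2.38), Usp18 (2.26), Nqo2 (2.08), Apold1 (2.02) and Nxph3 (2.00), and for Nr4a2 itself the value was 4.46. In METH rat 3 there were 5 such genes, and in each of the other rats 0 or 1. Ifit3 and Usp18 are interferon-induced genes, and Apold1 is an early gene of vascular endothelium. Bdnf, the neurotrophin made by cortical projection neurons and listed as an Nr4a target, had 23 counts in saline rat 1, 11 in saline rat 3, 0 in saline rats 2 and 4 and 0 to 4 in METH rats.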
